A study of Mus musculus with 6 samples.

Results

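Laminins are the cross-shaped glycoproteins on which an epithelium stands, and 9 genes of this system were followed here. They are 6 genes for laminin chains (Lama1, Lama3, Lama5, Lamb1, Lamb3 and Lamc1) and 3 for subunits of the integrins with which epithelial cells hold laminin (Itga6, Itgb4 and Itga3). They were chosen by name as a family, with earlier results of these data known, and all 9 were found among the 28752 genes of the deposited table. Of these, 8 had enough counts to be tested and Lama1 had not. The study asked what overexpression of circEZH2_005, a circular RNA derived from the Ezh2 gene, changes in intestinal epithelium under hypoxia/reoxygenation (H/R), a culture model of ischemia/reperfusion injury. The cells were Lgr5+ intestinal stem cells (ISCs), taken by cell sorting from mice with a GFP reporter for Lgr5 (Lgr5-GFP) and cultured as organoids. One group of 3 samples, labelled wild type, carried the vector, and the other group of 3 carried an adenovirus for circEZH2_005. Both groups were infected for 72 h and then held at 2% O2 for 4 h, so no sample here was free of H/R, and the sources used here give no separate age or number for the Lgr5-GFP mice. The paper describes its experiments as done with at least 3 independent biological replicates. Whether the samples of a group came from separate mice or separate cultures is not stated. The p-values below therefore measure the spread between these samples, which may be technical in part.

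A laminin molecule is a trimer of 1 alpha, 1 beta and 1 gamma chain, each from its own gene. Laminin-332, which holds the products of Lama3 and Lamb3, anchors epithelia and is laid down at wound edges, whereas laminin-511 and laminin-111 share Lamb1 and Lamc1 and differ in their alpha chain, from Lama5 and Lama1. In the gut the alpha chains are spread unevenly along the crypt-villus axis. Cells bind laminins through integrin α6β4, the receptor of hemidesmosomes, and through integrins α3β1 and α6β1.

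The libraries were deep and even, with 71506487 to 79919893 counts assigned to genes. Values are given as FPKM (fragments per kilobase of transcript, scaled to library size), which allows levels of different genes to be compared, or as counts. The labelled cell type was checked against markers, of which 6 epithelial genes summed to 6528 to 6822 CPM (counts scaled to library size) in the vector group and 7971 to 10332 in the circEZH2_005 group. The 5 stem cell markers summed to 1624 to 2481 CPM with the vector and 1130 to 1697 CPM with circEZH2_005, and Lgr5 itself was low, at a mean of 1.39 against 0.713 FPKM. Krt8 was called higher (log2 fold change 0.57, adjusted p = 0.0301), and Lgr5 (-0.88, adjusted p = 0.0434) and Smoc2 (-0.81, adjusted p = 0.0203) lower. The other stem cell markers were not called. Of them, Ascl2 (-0.68, adjusted p = 0.0921) and Olfm4 (-0.42, adjusted p = 0.314) had negative values and Axin2 a positive one (0.31, adjusted p = 0.219). Olfm4, at 1003 to 2314 CPM, made up most of each stem cell sum. Markers of leukocytes, which purely epithelial organoids should lack, were present and moved with the group: 7 genes summed to 51.0 to 158 CPM with the vector and 199.5 to 355 CPM with circEZH2_005, all 7 were tested, none passed an adjusted p of 0.05, and none was at or under 3 counts in every sample. Vector sample 2 had the highest leukocyte sum of its group and was closer to the circEZH2_005 libraries than the other vector samples were (r = 0.965 to 0.971 across genes, against 0.951 to 0.964). Some results are therefore also given without this sample. Summed markers of fibroblasts and muscle (10 genes) were at 8.95 to 10.2 CPM with the vector and 4.90 to 13.9 CPM with circEZH2_005. Those of endothelium (6 genes) were at 1.17 to 2.44 and 4.15 to 6.10 CPM, in the same order. Those of glia and neurons (4 listed genes) were at 1.65 to 2.02 and 1.16 to 1.52 CPM. Among the genes of these lists, Pecam1, which leukocytes also express, was called higher (log2 fold change 1.93, adjusted p = 0.0377).

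The receptors were expressed far above their ligands. In the vector group the order by mean FPKM was Itga6 (30.5), Itga3 (27.6), Itgb4 (14.0), Lamb3 (1.94), Lamc1 (0.770), Lama3 (0.675), Lamb1 (0.346), Lama5 (0.270) and Lama1 (0.00147). The ranges of Lamc1 and Lama3 overlapped over the 3 samples, as did those of Lamb1 and Lama5, whereas all other neighbours were apart. In the circEZH2_005 group Lama3 (2.28) stood above Lamc1 (0.847) with no overlap, and Lama5 (0.248) stood above Lamb1 (0.173). The ranges of Itga6 and Itga3 overlapped there.

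**Figure D1:**
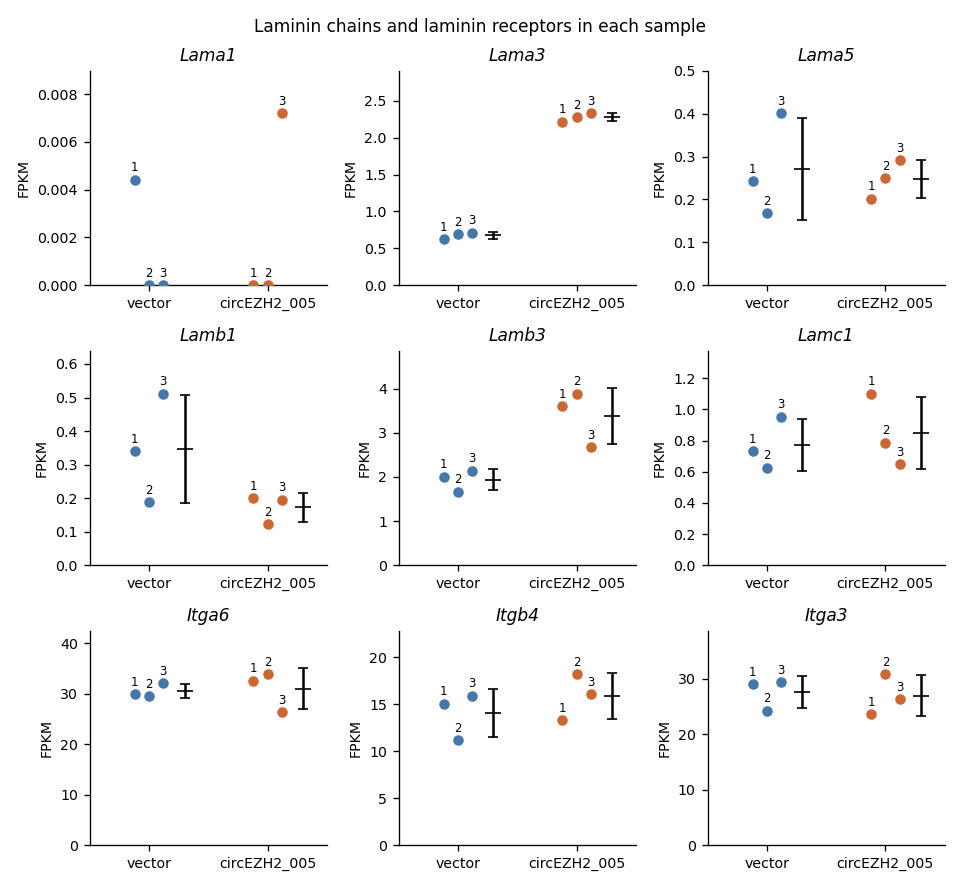
FPKM of the 9 genes in each sample (points, numbered by replicate; blue, vector; orange, circEZH2_005), with the mean and SD of 3 samples as black bars except for Lama1, which is at 0 in 4 samples; every vertical axis starts at 0 and has its own scale. The groups are apart for Lama3 and Lamb3 and overlap for the other 7 genes.

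Between the groups, 2 of the 8 tested members were higher with circEZH2_005 at an adjusted p under 0.05 (edgeR, adjusted over all 18348 genes tested), and both encode chains of laminin-332. Across all genes tested 2.69% were called higher and 0.986% lower, and no member was called lower. These shares depended on single libraries: 493 genes were called higher and 181 lower, and the numbers became 26 and 2 without vector sample 1, 31 and 2 without vector sample 3, 62 and 6 without circEZH2_005 sample 2 and 136 and 33 without circEZH2_005 sample 3. Without circEZH2_005 sample 1 the numbers changed little, to 553 and 128. Without vector sample 2 they were 1098 and 334, and 1 member, Lamb1, was then called lower. The groups did not overlap, with circEZH2_005 higher, for the same 2 members, against 16.4% of all genes tested. At a fold change over 2 with p under 0.05, Lama3 alone was called, against 6.22% of all genes. The median log2 fold change of the 8 tested members was 0.16, beside 2.2e-05 over all genes tested.

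Lama3 (ENSMUSG00000024421, mm10 chromosome 18, 12333819 to 12583013, plus strand) encodes the alpha chain of laminin-332. It was counted 534, 591 and 646 times in the vector samples and 2036, 2189 and 2116 times with circEZH2_005. As FPKM these were 0.624, 0.689 and 0.712 against 2.22, 2.28 and 2.33, a mean ± SD of 0.675 ± 0.0455 and 2.28 ± 0.0547 (n = 3 each). The lowest circEZH2_005 sample lay above the highest vector sample by many times the spread within either group. The fold change was 3.59 (95% interval 3.00 to 4.30), with a log2 fold change of 1.84 (SE 0.11) and an adjusted p of 0.00191 (edgeR), the third smallest p of the 18348 genes tested. Vector sample 2, with its leukocyte sum of 158 CPM, had a Lama3 level between those of the other vector samples, and without it the log2 fold change was 1.85 (adjusted p = 0.00179). Whether the difference came from more Lama3 RNA per cell or from a larger share of cells that make it cannot be told apart in bulk samples, and this holds for every gene below. The gene gives rise to a long and a short form of the chain, which these gene totals do not separate. An antisense gene, Gm29200, shares 197 exonic bases with Lama3 and was counted 0 to 2 times per sample.

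Lama5 (ENSMUSG00000015647, mm10 chromosome 2, 180176373 to 180225859, minus strand), the alpha chain of laminin-511, showed no such difference. Its FPKM were 0.242, 0.167 and 0.401 with the vector and 0.202, 0.250 and 0.291 with circEZH2_005, and all 3 circEZH2_005 values lay within the vector range. The log2 fold change was -0.03 (SE 0.34, adjusted p = 0.968 by edgeR), with a 95% interval of the fold change from 0.563 to 1.70. Its sign turned to 0.36 without vector sample 3 and to 0.13 without circEZH2_005 sample 1.

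Lama1 (ENSMUSG00000032796, mm10 chromosome 17, 67697259 to 67822647, plus strand), the alpha chain of laminin-111, was close to the detection limit in both groups. It had 4, 0 and 0 counts with the vector and 0, 0 and 6 counts with circEZH2_005. Each of the 4 libraries at 0 allows up to 3 counts, which is 0.0375 to 0.0415 CPM. No fold change is given because both groups were near this limit, which covers counting error only.

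Lamb3 (ENSMUSG00000026639, mm10 chromosome 1, 193207699 to 193343878, plus strand) encodes the beta chain of laminin-332 and was the second member called higher. Its counts were 1054, 881 and 1198 with the vector and 2034, 2293 and 1494 with circEZH2_005. As FPKM these were 2.01, 1.67 and 2.14 against 3.60, 3.88 and 2.67, so the groups were apart, with circEZH2_005 sample 3 nearest to the vector group. The fold change was 1.85 (95% interval 1.41 to 2.44), with a log2 fold change of 0.89 (SE 0.17) and an adjusted p of 0.0393 (edgeR). This call was close to the threshold. It held without vector sample 2 (adjusted p = 0.0412). It was lost when any other sample was left out, with adjusted p-values of 0.138 without vector sample 1, 0.129 without vector sample 3 and 0.0613, 0.123 and 0.0520 without circEZH2_005 samples 1, 2 and 3. The log2 fold change stayed between 0.74 and 1.02 in these fits.

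Lamb1 (ENSMUSG00000002900, mm10 chromosome 12, 31265234 to 31329644, plus strand), the beta chain of laminin-111 and laminin-511, had the only sizeable negative value. Its FPKM were 0.339, 0.189 and 0.511 with the vector and 0.200, 0.123 and 0.195 with circEZH2_005. Vector sample 2 lay within the circEZH2_005 range and the other vector samples lay above it. The log2 fold change was -0.92 (SE 0.37, 95% interval -1.79 to -0.06), with an adjusted p of 0.186 (edgeR). Without vector sample 2 it was -1.22 with an adjusted p of 0.0472, which passed the threshold.

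The stretches of 250 bases upstream of a start site of both beta chain genes are shown because their fitted values had opposite signs. Both come from RefSeq (GRCm38.p6), 5′ to 3′ along the gene, and capitals mark the GC box GGGCGG or its reverse complement. Lamb3 lies at chr1:193301744-193301993 (plus strand) and Lamb1 at chr12:31265043-31265292 (plus strand). The Lamb3 stretch, like the second Lamb3 window below, lies inside the gene span given above and not upstream of it. The second Itga3 window below, the one with the AP-1 motif, also lies inside its gene span. The Lamb1 stretch runs past the start of the Lamb1 span.
Lamb3: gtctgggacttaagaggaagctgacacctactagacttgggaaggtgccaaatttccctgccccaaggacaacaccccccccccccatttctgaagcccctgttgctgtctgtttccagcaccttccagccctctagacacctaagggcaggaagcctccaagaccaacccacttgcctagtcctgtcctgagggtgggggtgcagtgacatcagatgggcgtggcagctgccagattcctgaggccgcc
Lamb1: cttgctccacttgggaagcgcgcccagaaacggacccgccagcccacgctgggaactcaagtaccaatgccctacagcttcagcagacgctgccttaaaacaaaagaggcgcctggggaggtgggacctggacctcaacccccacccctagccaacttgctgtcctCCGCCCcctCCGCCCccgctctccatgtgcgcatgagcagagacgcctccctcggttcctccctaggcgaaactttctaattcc
The Lamb1 stretch held 2 GC boxes and the Lamb3 stretch none, and 35.7% of all 32851 RefSeq windows of 300 bases (250 before to 50 after a start) held at least 1. Windows were on hand for 4 members, 6 windows in all. Lama5 had 4 GC boxes, the windows of Itga3 had 3 and 1, and a second Lamb3 window had none. The AP-1 motif TGANTCA (in 7.81% of all windows) was in 1 Itga3 window, the TEAD motif GGAATG (14.7%) was in the second Lamb3 window, and ACGTG, the core of the hypoxia response element (19.6%), was in none of the 6. Both strands were searched, the motifs were chosen with the fold changes known, and a match describes letters only. G and C made up 59.3% of each Lamb3 window, 63.7% of the Lamb1 window, 72.7% of the Lama5 window and 66.7% and 52.3% of the Itga3 windows, against a median of 52.7% over all windows.

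Lamc1 (ENSMUSG00000026478, mm10 chromosome 1, 153218922 to 153332786, minus strand), the gamma chain shared by laminin-111 and laminin-511, overlapped between groups. Its FPKM were 0.730, 0.626 and 0.954 with the vector and 1.10, 0.788 and 0.651 with circEZH2_005. The log2 fold change was 0.21 (SE 0.22, adjusted p = 0.626 by edgeR), with a 95% interval of the fold change from 0.807 to 1.66. Of 4 further laminin chain genes outside the set, 2 were tested and none was called. Lama2, Lama4, Lamb2 and Lamc3 all had means under 0.1 FPKM.

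The make-up of the alpha and beta chains was then compared within samples, which removes differences in total scaling. Lama3 made up 69.1%, 78.3% and 62.6% of the summed alpha chain FPKM in the vector samples and 90.4%, 90.1% and 88.0% with circEZH2_005, a difference of 19.5 percentage points in the mean. Lama5 made up 27.0% ± 8.09 of it with the vector and 9.70% ± 1.39 with circEZH2_005 (SD, n = 3 each), though its own FPKM overlapped. Among beta chains Lamb3 went from 82.5% ± 4.23 to 92.7% ± 2.29 and Lamb1 from 14.2% ± 4.49 to 4.92% ± 1.81. In both classes the chain of laminin-332 was already the major one with the vector, and its share was higher in each circEZH2_005 sample than in each vector sample. These shares reached p = 0.1 in a two-sided exact permutation test, the smallest that 3 against 3 samples allow, and 0.18 after adjustment over the 9 shares. The shares of a class add up to the whole, so a larger share of 1 chain lowers the others by construction.

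**Figure D2:**
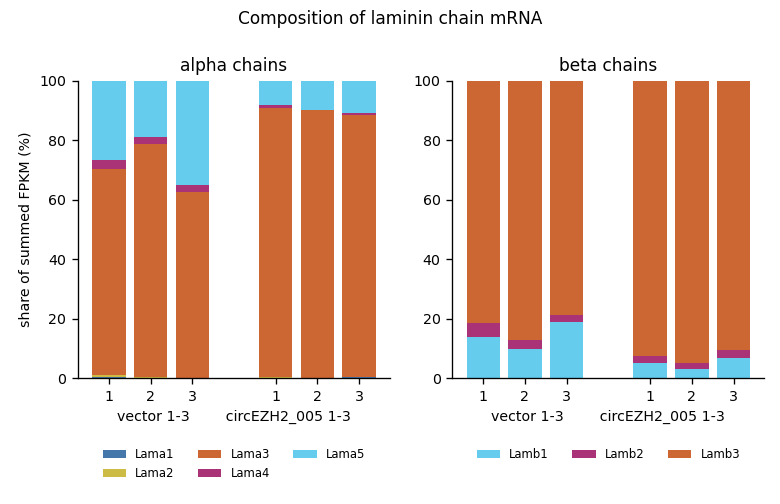
Share of each gene in the summed FPKM of its chain class (percent, vertical axis) in the 3 vector and 3 circEZH2_005 samples, 1 stacked bar per sample; orange marks Lama3 or Lamb3. The orange part is larger in every circEZH2_005 bar, with means of 70.0% and 89.5% for Lama3 and 82.5% and 92.7% for Lamb3.

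The summed level was then compared for each class. The alpha chains together were at 0.974 ± 0.143 FPKM with the vector and 2.54 ± 0.0967 FPKM with circEZH2_005, with no overlap (exact permutation p = 0.1). The beta chains were also apart, at 2.36 ± 0.410 and 3.64 ± 0.606 FPKM (p = 0.1, exact permutation). Lama3 and Lamb3 were the largest parts of these sums, so the sums repeat their differences and are no separate result for the other chains. In the vector group the alpha chain mRNA was scarcer than the beta chain mRNA in each sample, and this was also so in each circEZH2_005 sample.

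Ratios within a sample give the same data without the sum. Lama3 was 2.66 times Lama5 in the vector group and 9.29 times in the circEZH2_005 group (geometric means of FPKM ratios), a difference of 1.81 on the log2 scale (95% interval 0.77 to 2.85). Lamb3 was 6.03 times Lamb1 with the vector and 19.8 times with circEZH2_005, a difference of 1.72 (95% interval 0.40 to 3.03). In both pairs the groups did not overlap, with an exact permutation p of 0.1, or 0.2 after adjustment over the 4 pairs that could be tested. The pair of Lama3 and Lama1 could not be tested because Lama1 was at 0 in 4 samples.

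**Figure D3:**
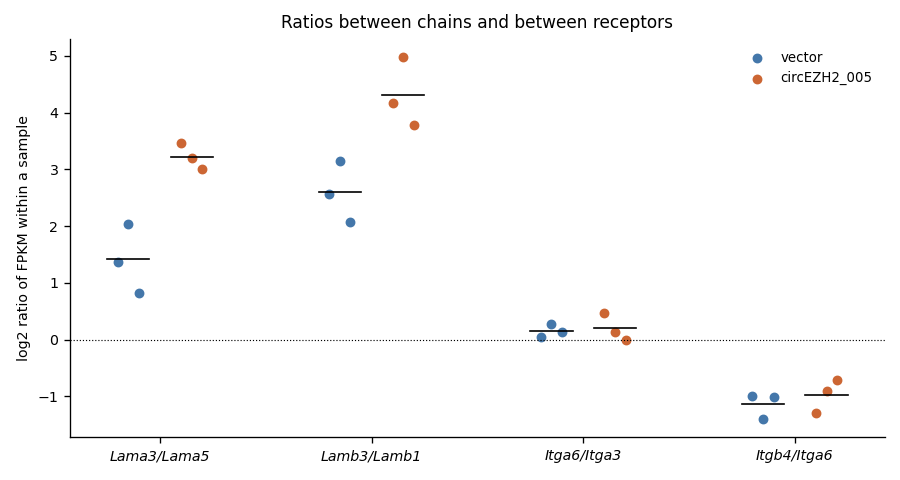
Log2 ratio of FPKM between 2 genes within each sample (vertical axis) for 4 pairs (blue, vector; orange, circEZH2_005; black line, mean of 3 samples). Lama3 to Lama5 and Lamb3 to Lamb1 are apart between groups, with mean differences of 1.81 and 1.72, and the receptor pairs overlap.

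None of the 3 receptor subunits passed the test. Itga6 (ENSMUSG00000027111, mm10 chromosome 2, 71745616 to 71858416, plus strand), the alpha subunit of integrins α6β4 and α6β1, was at 29.9, 29.5 and 32.1 FPKM with the vector and 32.6, 33.9 and 26.3 FPKM with circEZH2_005. CircEZH2_005 samples 1 and 2 lay above the vector range and sample 3 below it. The log2 fold change was 0.11 (SE 0.11, adjusted p = 0.617 by edgeR), and the 95% interval of the fold change was 0.899 to 1.29.

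Itgb4 (ENSMUSG00000020758, mm10 chromosome 11, 115974709 to 116008412, plus strand), the beta subunit that links laminin-332 to keratin filaments, was at 15.1, 11.1 and 15.9 FPKM with the vector and 13.3, 18.2 and 16.1 FPKM with circEZH2_005. The groups overlapped, and vector sample 2 was the lowest of all. The log2 fold change was 0.27 (SE 0.19, adjusted p = 0.433 by edgeR), with a 95% interval of the fold change from 0.891 to 1.64. Without vector sample 2 the log2 fold change was 0.12 (adjusted p = 0.741 by edgeR). An antisense gene, B230344G16Rik, shares 537 exonic bases with Itgb4, and reads of the pair cannot be told apart unless strand was used in counting, which the sources used here do not state.

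Itga3 (ENSMUSG00000001507, mm10 chromosome 11, 95044474 to 95076797, minus strand), the alpha subunit of integrin α3β1, was at 29.1, 24.3 and 29.4 FPKM with the vector and 23.6, 30.9 and 26.4 FPKM with circEZH2_005. Its log2 fold change was 0.06 (SE 0.15, adjusted p = 0.851 by edgeR), with a 95% interval of the fold change from 0.817 to 1.33. The sign turned to -0.03 without vector sample 2 and to -0.08 without circEZH2_005 sample 2. The ratio of Itga6 to Itga3 was 1.11 with the vector and 1.15 with circEZH2_005 (exact permutation p = 0.8), and that of Itgb4 to Itga6 was 0.455 and 0.512 (exact permutation p = 0.5). For all 3 integrin subunits the upper bound of the fold change, at most 1.64, lay under the lower bound of 3.00 for Lama3. The interval of Lamb3, 1.41 to 2.44, overlapped that of Itgb4 and lay above those of Itga6 and Itga3.

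**Figure D4:**
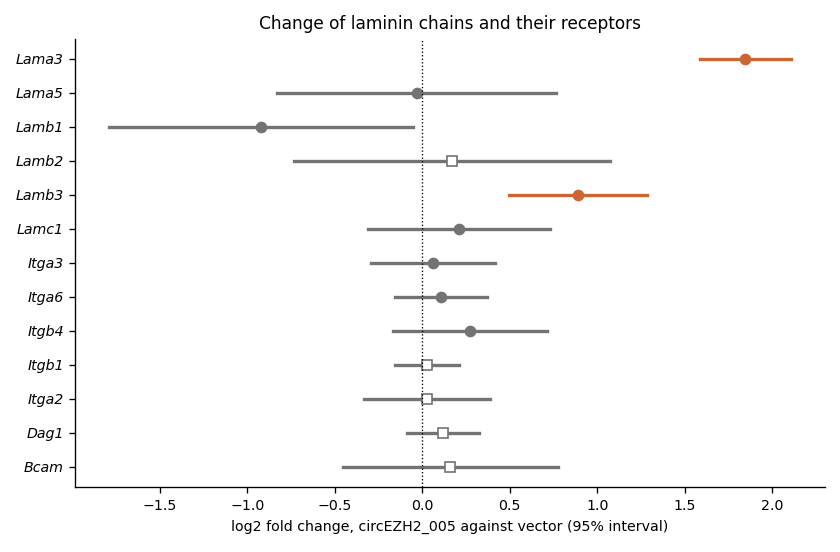
Log2 fold change of circEZH2_005 against vector (horizontal axis) with its 95% interval from edgeR for 13 genes; circles are members, open squares are other laminin chains and receptors, and orange marks an adjusted p under 0.05. Lama3 (1.84) and Lamb3 (0.89) are called, and the intervals of Itga3, Itga6 and Itgb4 all include 0.

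Of 8 other laminin receptor genes, all were tested and none was called in either direction, with a median log2 fold change of 0.03. Itgb1, the partner of α3 and α6, was at 53.5 to 61.9 FPKM over the 6 samples, and Dag1, encoding dystroglycan, at 39.0 to 44.9 FPKM. The smallest p in this list belonged to Rpsa, a ribosomal protein also named as a laminin receptor, with a log2 fold change of -0.22 (SE 0.11, adjusted p = 0.263). Among 4 hemidesmosome genes 3 were tested and none was called. Plec, which encodes the linker plectin between integrin β4 and keratins, came nearest, at 11.2 ± 0.790 against 16.0 ± 3.31 FPKM with no overlap (log2 fold change 0.61, SE 0.18, adjusted p = 0.0921).

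Of 13 other basement membrane genes, 10 were tested, none was called in either direction, and the median log2 fold change was -0.20. Nid2, a nidogen that joins laminin to collagen IV, was at 1.89, 1.43 and 1.94 FPKM with the vector and 0.981, 0.799 and 1.199 FPKM with circEZH2_005 (log2 fold change -0.73, SE 0.21, adjusted p = 0.0867). The collagen IV chains Col4a1 to Col4a6 were each under 0.1 FPKM in every sample. Of 14 proteases and inhibitors that act on laminin or basement membrane, 13 were tested and none was called. Mmp7, the matrilysin of Paneth cells, had the smallest p, at 141 ± 48.3 against 70.4 ± 11.4 FPKM (log2 fold change -0.92, SE 0.23, adjusted p = 0.0692).

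Of 13 further integrin chain genes, 11 were tested and 1 was called higher. This was Itgb6, the epithelial β6 subunit, at 1.285, 1.511 and 1.297 FPKM against 2.971, 2.870 and 1.897 FPKM (log2 fold change 1.00, SE 0.17, adjusted p = 0.0322). The median of this list was 1.00, and its highest values were those of integrins known from leukocytes, with Itgae at 2.11 (SE 0.47, adjusted p = 0.0550), Itgb7 at 1.96 (SE 0.46, adjusted p = 0.0582) and Itgb2 at 1.59 (SE 0.44, adjusted p = 0.0817), named after their values were seen. The summed leukocyte markers were higher in the same samples, as given above, and their part in these values was not tested. All 18 genes of the focal adhesion list were tested and 2 were called higher, Tns4 (log2 fold change 0.72, SE 0.09, adjusted p = 0.0158), encoding a tensin of epithelia, and Tln1 (log2 fold change 0.50, SE 0.09, adjusted p = 0.0314), encoding the integrin activator talin. Among 9 listed genes of epithelial repair, Areg, encoding the growth factor amphiregulin, was called higher, from 2.11, 4.77 and 2.72 FPKM to 11.1, 22.9 and 18.8 FPKM (log2 fold change 2.57, SE 0.39, adjusted p = 0.0235). The other 8 genes of that list were not called, and its median log2 fold change was 0.06.

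The genes whose level followed that of Lama3 most closely over the 6 samples were Elmo1 (Pearson r = 0.998), Eno3 (0.997), Gprc5a (0.995), Ces2a (0.995) and Ceacam18 (0.993), out of 11602 tested genes averaging 1 FPKM or more. The 6 points fall into the study's 2 groups, so these values mostly describe the shared step between groups. Gprc5a was at 4.55, 5.07 and 4.81 FPKM with the vector and 21.1, 24.5 and 19.8 FPKM with circEZH2_005. Among the members in this comparison Lamb3 had r = 0.907 with Lama3, which ranked only 560 among the 11602 genes. Itgb4, Itga6 and Itga3 had 0.521, 0.398 and 0.185 (ranks 3418, 3963 and 4839).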

How the data were processed

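Polyadenylated RNA was sequenced from 6 H/R-treated samples of Lgr5+ ISC organoids, 3 with vector and 3 with circEZH2_005. For each gene and sample the authors deposited a raw read count and an FPKM value. The submitters' processing notes name cutadapt 1.9, HISAT2 2.0.4, StringTie 1.3.4d, DESeq2 (version not given in the sources used here) and mm10. How strand was treated is not given in the sources used here. Control columns named NC were matched by number to the vector samples, the only control group, with 0 sample columns unused.

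Counts were filtered with filterByExpr, TMM-scaled and tested by quasi-likelihood in edgeR 4.0.16 (R 4.3.3) with no covariate, and p-values were adjusted by Benjamini-Hochberg over all genes tested. For fold changes the SE was taken as the absolute log2 fold change over the root of the F statistic. Their 95% intervals used the total degrees of freedom of the fit. The 95% intervals of the ratio differences used the variances of both groups and a t distribution with 4 degrees of freedom. They assume a normal spread, which the permutation tests do not. Shares and ratios used the authors' FPKM and two-sided exact permutation tests (scipy 1.17.1). Alternatives used RLE factors, other filters, DESeq2 1.42.0, limma 3.58.1 on log2(FPKM + 1) or log2(FPKM + 0.1), a replicate block and each sample left out. The fits were tested on simulated data. The members and gene lists were chosen with earlier results of these data known. Named genes were all members, the other laminin chains, up to 4 called genes per list with the largest change (or, with none called, the smallest p) and the 5 most like the member of smallest p. The result for 1 further gene, and the values that need it, are not reported here. Marker lists were summed as CPM, for which library sizes were TMM-scaled. Of 28752 gene identifiers, 28678 were found in GENCODE M21, which gave the overlaps between genes. Promoter windows for Lama1, Lama3, Lamc1, Itga6 and Itgb4 were not used here.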

Additional observations from a re-analysis of the deposited data

How the results depend on the processing

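Lama3 kept its direction and its call in all 12 alternatives that tested it, with log2 fold changes of 0.97 to 1.91. The value of 0.97 came from limma on log2(FPKM + 1), where the added 1 exceeds the mean Lama3 level with the vector, 0.675 FPKM. With limma on log2(FPKM + 0.1) it was 1.62, and the fits on counts gave 1.80 to 1.91. Lamb3 kept its direction in 13 of 13 alternatives and its call in 4, and lost the call with no filter (0.89, adjusted p = 0.0754), with limma on log2(FPKM + 1) (0.57, adjusted p = 0.0513) and on log2(FPKM + 0.1) (0.76, adjusted p = 0.0519), so that 1 member was called higher there. With a mean of at least 2 FPKM only Lamb3 was called, 1 member of the 4 tested, because Lama3 fell under that filter. Lamb3 ranged from 0.741 to 1.02 and Lamb1 from -1.22 to -0.54 with 1 sample left out. Lamc1, Itga6 and Itgb4 kept their sign and missed the threshold throughout. The sign of Itga3 turned to -0.04 in both limma fits (-0.036 and -0.037), with a range of -0.0819 to 0.19 with 1 sample left out, and that of Lama5 ranged from -0.29 to 0.36. Of the members, 1 to 2 were called higher and 0 to 1 lower with 1 sample left out, with a median log2 fold change of 0.0644 to 0.361.

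Over all genes, 493 were called higher and 181 lower. These became 132 and 37 with no filter, 1632 and 831 with DESeq2, 371 and 364 with limma on log2(FPKM + 1), 323 and 319 with limma on log2(FPKM + 0.1), and 26 to 1098 and 2 to 334 with 1 sample left out; 1098 and 334 were reached without vector sample 2. Samples with the same number did not deviate together (r = -0.136, -0.0234 and 0.0363), so the numbers were not taken as pairs. With the replicate block 241 genes were called higher and 36 lower, Lama3 stayed called (1.84, adjusted p = 0.0112), Lamb3 was not (0.88, adjusted p = 0.0927), which left 1 member called higher, and Lama5 turned to 0.0297.

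The shares of Lama3 and Lamb3 were higher with circEZH2_005 in all 7 alternatives, by 15.8 to 23.7 and 8.30 to 13.5 percentage points. The groups were apart for both shares, so leaving out 1 sample could change only the size and not the direction. The differences of the share of Lama1 (-0.163 to 0.0905 percentage points) and of Itga6 (-1.44 to 2.59), and of the log2 ratio of Itga6 to Itga3 (-0.0835 to 0.15), changed sign with 1 sample left out. The causes were not tested. With 3 samples per group, exact tests could not pass 0.05, and Lama1 lay near the limit of a count of 0.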
